A study of Mus musculus with 6 samples.

Results

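The genes described here encode the MHC class I presentation pathway in mouse kidney: the heavy chains H2-K1, H2-D1, H2-Q4, H2-Q7 and H2-T23, the light chain B2m, the peptide transporter subunits Tap1 and Tap2 and the immunoproteasome subunits Psmb8 and Psmb9. They were taken by gene name, and all 10 were found among the 17550 genes of the table. Bulk RNA sequencing of kidneys perfused with saline gave 3 libraries labelled Control and 3 labelled KC-Tie2, psoriasis-model mice whose transgene places Tie2, an angiopoietin receptor, in the keratinocytes of the skin. The libraries were made from total RNA by poly(A) selection. The labels give no other allele, treatment, strain, age, sex or promoter of the transgene, nor do they state that each sample is its own animal, so the p-values reflect only how these samples vary, which may be technical.

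MHC class I molecules show peptides from inside the cell to CD8 T cells and, in part, to NK cells. Proteasomes cut proteins into peptides, the transporter TAP carries these into the endoplasmic reticulum, and there they are loaded onto a heavy chain paired with beta-2-microglobulin. Interferons raise most genes of this pathway, including proteasome subunits that replace the constitutive catalytic ones. Nearly all nucleated cells carry class I, and in kidney the tubules, the endothelium and resident leukocytes all contribute transcripts.

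Upstream sequences are shown for 5 genes because the heavy chains with the clearest difference, the light chain, the heavy chain with a lower mean and the transporter gene that shares its upstream stretch with Psmb9 can be compared in them. They come from RefSeq (build GRCm38.p6, whose coordinates are not those of the deposited table) and end at the base before the annotated start, 250 bases in all. Of the 10 genes, 9 had an entry. A set of 3 motifs was searched on both strands, chosen with the data known: an interferon-stimulated response element as a pair of GAAA with 2 bases between them, a kappa B site as GGGGA directly followed by TTCCC, and a gamma-activated site as TTC and GAA with 3 bases between them. Capitals mark matches to them, and no matches overlap.
H2-K1, chr17:34000348-34000597, minus strand: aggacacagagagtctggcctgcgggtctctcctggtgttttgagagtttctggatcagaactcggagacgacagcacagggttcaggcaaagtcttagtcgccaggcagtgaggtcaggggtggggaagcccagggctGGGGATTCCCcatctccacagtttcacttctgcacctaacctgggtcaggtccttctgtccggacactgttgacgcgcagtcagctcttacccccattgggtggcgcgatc
H2-D1, chr17:35262844-35263093, plus strand: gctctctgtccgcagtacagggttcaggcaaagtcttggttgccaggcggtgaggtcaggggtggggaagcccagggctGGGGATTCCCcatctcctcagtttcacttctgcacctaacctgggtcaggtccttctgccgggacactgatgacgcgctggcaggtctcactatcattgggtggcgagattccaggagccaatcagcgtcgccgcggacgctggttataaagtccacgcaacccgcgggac
H2-T23, chr17:36032702-36032951, minus strand: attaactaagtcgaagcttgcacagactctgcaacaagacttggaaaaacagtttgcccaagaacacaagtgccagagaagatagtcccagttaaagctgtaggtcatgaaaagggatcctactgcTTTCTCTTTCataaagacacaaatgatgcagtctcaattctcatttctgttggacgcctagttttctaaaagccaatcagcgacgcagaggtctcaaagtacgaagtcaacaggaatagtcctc
B2m, chr2:122147437-122147686, plus strand: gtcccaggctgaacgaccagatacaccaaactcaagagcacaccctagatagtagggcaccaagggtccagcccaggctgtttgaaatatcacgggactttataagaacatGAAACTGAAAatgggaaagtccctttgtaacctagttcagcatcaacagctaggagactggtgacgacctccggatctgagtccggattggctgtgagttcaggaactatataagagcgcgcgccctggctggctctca
Tap1, chr17:34187306-34187555, plus strand: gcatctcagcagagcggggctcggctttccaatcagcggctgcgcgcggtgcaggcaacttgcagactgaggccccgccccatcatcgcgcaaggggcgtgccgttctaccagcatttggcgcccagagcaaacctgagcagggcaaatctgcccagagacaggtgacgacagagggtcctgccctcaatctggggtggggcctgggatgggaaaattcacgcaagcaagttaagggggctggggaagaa
The kappa B letters lay at base -111 of H2-K1 and -171 of H2-D1, counted back from the start, and also at -133 of H2-Q7. They were found in 0.0861% of the 32536 upstream windows of the RefSeq table. The windows of H2-K1, H2-D1 and H2-Q7 resemble one another around the match, so these matches are not independent. No excess over that share was tested. The response element letters lay at -139 of B2m and, on the other strand, at -124 of H2-T23, and were found in 2.98% of all windows. Psmb8 held the gamma-activated site at -97, which 7.04% of windows hold. In RefSeq the starts of Tap1 and Psmb9 lie 226 bases apart and point away from each other. Their windows share 225 bases, in which none of the 3 motifs was matched. The deposited annotation places the starts otherwise, and in it the genes overlap by 212 bases. Matches describe these exact letters only, and variants of the sites were not searched. The H2-Q4 window, for example, had no match but holds ggggatttccc, close to the kappa B letters. H2-K1, H2-D1, H2-Q4 and H2-Q7 all hold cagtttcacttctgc, which the response element letters do not match. A window without a match is therefore not shown to lack a site.

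Of the 10 genes, 9 had a somewhat higher mean in KC-Tie2 kidneys, and none passed the test. The clearest differences were at the classical heavy chains H2-D1 and H2-K1, about 1.25-fold and 1.28-fold higher, and at B2m, 1.28-fold higher. Tap1 was 1.3-fold higher with overlapping groups. H2-T23, which encodes the nonclassical molecule Qa-1 that NK cell receptors recognise, had a lower mean in KC-Tie2 kidneys. In bulk tissue, more cells that carry a transcript and more transcript per cell cannot be told apart.

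Values are normalized counts, in the order replicate 1, 2 and 3, and log2 fold changes are KC-Tie2 minus Control on the log2(value + 1) scale with their SE. Of the 10 genes, 0 were called at an adjusted p under 0.05 in limma, with p-values adjusted by Benjamini-Hochberg across 17539 tested genes, where 1.69% of all genes were. At an unadjusted p under 0.05, 4 of the 10 were higher (H2-K1, H2-D1, B2m and Tap1), against 7.57% of all genes, and 0 were lower, against 7.77%. The 3 KC-Tie2 libraries lay entirely above the 3 Control libraries at 3 of the 10 (H2-K1, H2-D1 and B2m), against 9.96% of all genes. Log2 fold changes were above 0 at 9 of the 10, against 50.3% of all genes, with a median of 0.27 beside 0.0012 over all genes tested. In the authors' deposited table, which compares KC-Tie2 with a group headed WT by another test, H2-D1 (step-up FDR 0.0192) and H2-K1 (0.0328) passed 0.05, where 1.83% of all genes passed as higher, and B2m had 0.0697. The call for these 2 heavy chains thus differed between the tests, with ratios of 1.25 and 1.28 in the authors' deposited table.

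**Figure D1:**
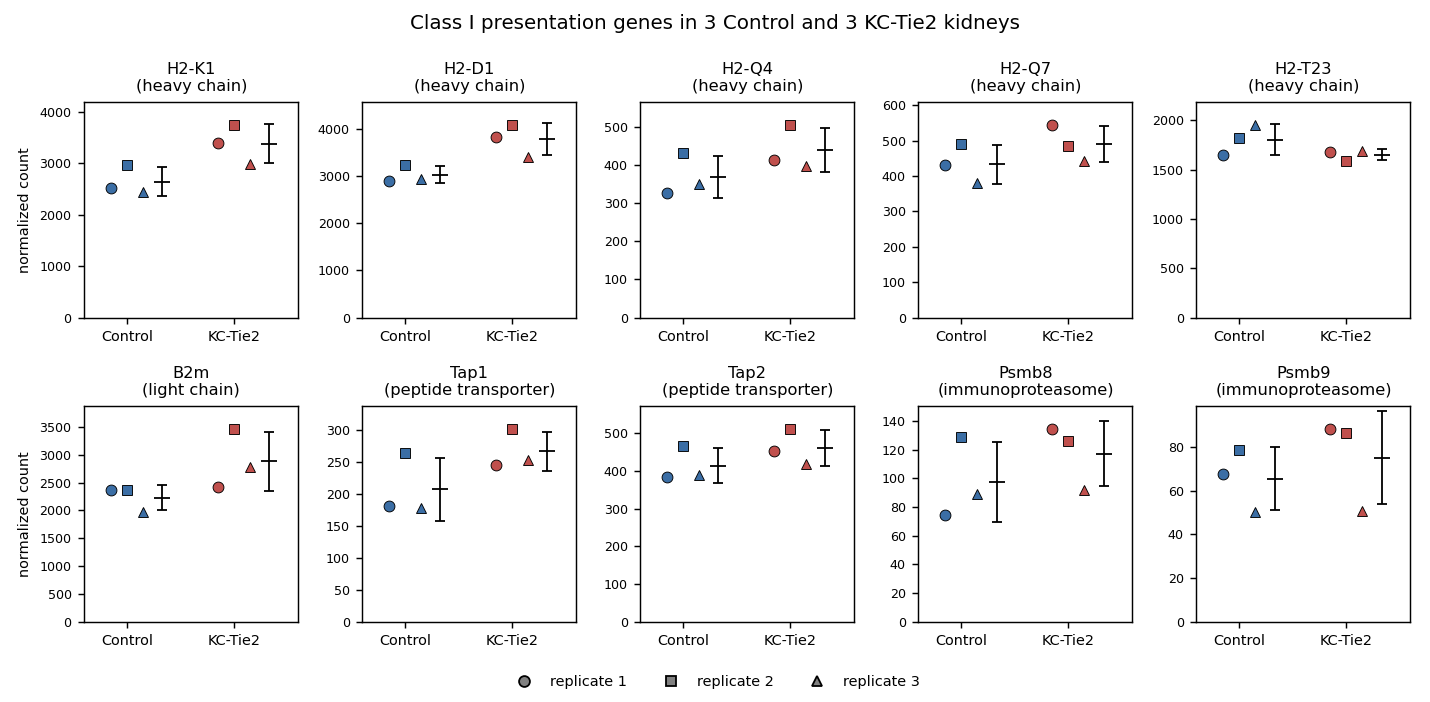
Normalized count (linear axis from 0) of each of the 10 genes in every library; symbols are replicates, blue for Control and red for KC-Tie2, and the bar to the right of each group is its mean ± SD (n = 3). The groups are separate at H2-K1, H2-D1 and B2m, the first by a narrow gap of 2973 to 2987, and overlap at the other genes.

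The classical heavy chains present peptides to CD8 T cells. H2-K1 (ENSMUSG00000061232, chromosome 17, 34214991 to 34219321, minus strand, mm39) was at 2516, 2973 and 2445 in Control kidneys and at 3395, 3745 and 2987 in KC-Tie2 kidneys. All KC-Tie2 libraries were above all Control libraries, but the lowest KC-Tie2 library, replicate 3, was level with the highest Control library, replicate 2. The log2 fold change of H2-K1 was 0.35 ± 0.10 (95% interval 0.14 to 0.57, limma adjusted p = 0.106). H2-D1 (ENSMUSG00000073411, chromosome 17, 35481706 to 35486475, plus strand) was at 2907, 3236 and 2944 in Control kidneys and at 3843, 4091 and 3419 in KC-Tie2 kidneys. Its groups were separate and the same 2 libraries stood nearest to each other. The difference at H2-D1 was 0.32 ± 0.08 on the log2 scale (95% interval 0.14 to 0.49, limma adjusted p = 0.0771). Without Control replicate 2 both genes were called (adjusted p = 0.0339 for H2-K1 and 0.0453 for H2-D1, limma), as were 3.02% of all genes. Both were also called without KC-Tie2 replicate 3 (0.0329 and 0.0231, with 3.89% of all genes called) and with library weights (0.0455 and 0.0330, with 3.13% called). In the other 4 fits with 1 library left out neither was.

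H2-K1 and H2-D1 kept nearly the same proportion in every library. The ratio of H2-K1 to H2-D1 was 0.866, 0.919 and 0.830 in Control kidneys and 0.884, 0.916 and 0.874 in KC-Tie2 kidneys, a log2 difference of 0.03 (exact permutation p = 0.5, two-sided, n = 3 against 3). With 20 ways to assign the libraries no ratio can give a p below 0.1. Adjusted over the 7 ratios tested, the p of this ratio was 0.7.

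H2-Q4, the Qa-2 heavy chain H2-Q7 and the Qa-1 heavy chain H2-T23 are nonclassical class I molecules of low polymorphism. H2-Q4 (ENSMUSG00000035929, chromosome 17, 35598593 to 35604266, plus strand) was at 325, 431 and 348 in Control kidneys and at 412, 504.4 and 397 in KC-Tie2 kidneys. Control replicate 2 lay above KC-Tie2 replicates 1 and 3, so the groups overlapped, and the weak antisense gene Gm11131, which shares 676 bases with H2-Q4, was at 17.3 to 28.9 (log2 fold change of H2-Q4 0.25 ± 0.13, 95% interval -0.028 to 0.53, limma adjusted p = 0.383). H2-Q7 (ENSMUSG00000060550, chromosome 17, 35658131 to 35662749, plus strand) was at 431, 491 and 379 against 545, 486 and 443. Again Control replicate 2 reached into the KC-Tie2 range, and the log2 fold change was 0.18 ± 0.11 (95% interval -0.067 to 0.43, limma adjusted p = 0.496). Without KC-Tie2 replicate 2 the log2 fold change of H2-Q4 was 0.15, and without Control replicate 3 that of H2-Q7 was 0.090. H2-T23 (ENSMUSG00000067212, chromosome 17, 36340665 to 36343747, minus strand) went the other way, with 1644, 1818 and 1954 in Control kidneys and 1679, 1590 and 1690 in KC-Tie2 kidneys. The lowest Control library lay within the KC-Tie2 range, and a log2 fold change of -0.12 ± 0.08 (95% interval -0.29 to 0.041, limma adjusted p = 0.483) covers 0. H2-T23 was below 0 in all 15 alternative fits, from -0.19 (without Control replicate 1) to -0.065 (without Control replicate 3), and called in none of them.

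Heavy chain genes resemble one another, which bears on how reads are divided among them. Of the distinct stretches of 50 bases in the protein-coding transcripts of H2-Q7 (GENCODE M21), 34.9% also occur in transcripts of another gene, most often H2-Q5. The share was 28.8% for H2-T23, 24.3% for H2-Q4, 13.9% for H2-D1 and 6.87% for H2-K1, under 1% for Tap1 and Tap2, and 0 for B2m, Psmb8 and Psmb9. Values of H2-Q4, H2-Q7 and H2-T23 are therefore less certain than those of the others. Class I heavy chains also differ among mouse strains, and the labels give no strain.

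B2m (ENSMUSG00000060802, chromosome 2, 121978167 to 121983564, plus strand) encodes the light chain that class I heavy chains need to reach the cell surface. B2m was at 2364, 2364 and 1971 in Control kidneys and at 2419, 3462 and 2775 in KC-Tie2 kidneys. The groups did not overlap, but KC-Tie2 replicate 1 exceeded the upper Control libraries by little, and replicate 2 was far above. A log2 fold change of 0.36 ± 0.13 (95% interval 0.056 to 0.66) had a limma adjusted p of 0.244. Without KC-Tie2 replicate 2 the difference was 0.22. The summed 5 heavy chains divided by B2m gave 3.31, 3.79 and 4.09 in Control kidneys and 4.08, 3.01 and 3.22 in KC-Tie2 kidneys, overlapping ranges (log2 difference -0.13, exact permutation p = 0.4, adjusted 0.7 over the 7 ratios). Light chain and heavy chains thus differed in proportion by less than the spread between libraries.

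**Figure D2:**
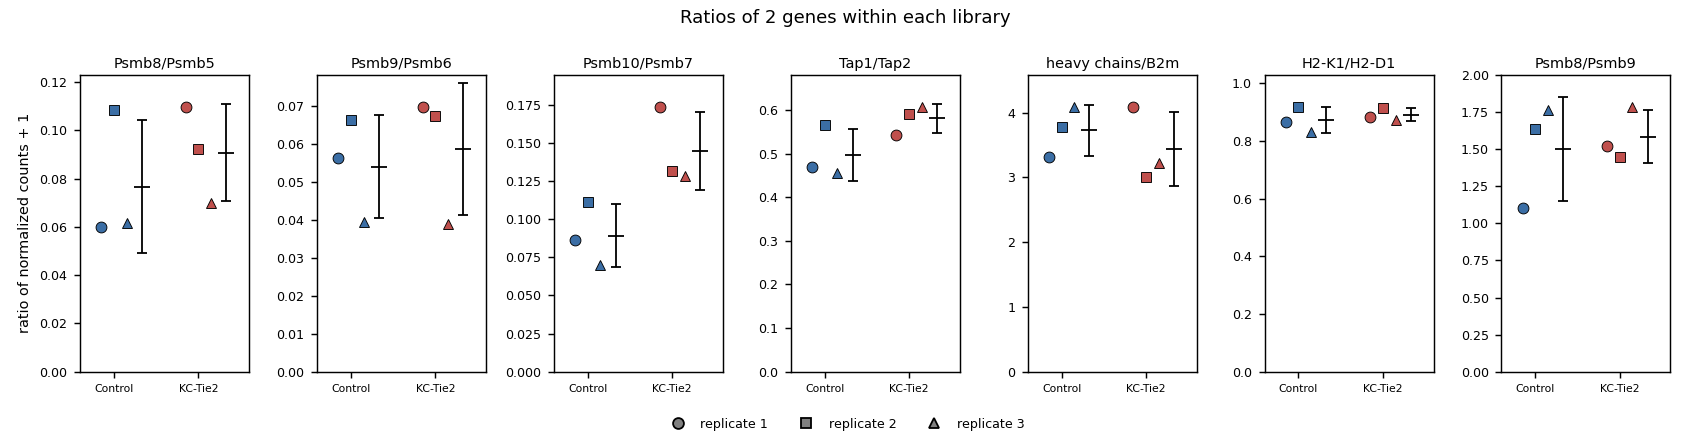
Ratio of 2 genes (or of the summed 5 heavy chains to B2m) within each library, on linear axes from 0; symbols are replicates and bars are mean ± SD of the ratios (n = 3). Only Psmb10/Psmb7 separates the groups, 0.0700 to 0.111 in Control and 0.129 to 0.174 in KC-Tie2 libraries.

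Tap1 and Tap2 form the transporter that moves peptides into the endoplasmic reticulum. Tap1 (ENSMUSG00000037321, chromosome 17, 34406527 to 34416199, plus strand) was at 180, 263 and 177 in Control kidneys and at 245, 301 and 253 in KC-Tie2 kidneys. Control replicates 1 and 3 were well below all KC-Tie2 libraries, and replicate 2 lay inside the KC-Tie2 range. Its log2 fold change was 0.38 ± 0.16 (95% interval 0.025 to 0.74, limma adjusted p = 0.291). Tap2 (ENSMUSG00000024339, chromosome 17, 34422501 to 34435295, plus strand) was at 385, 467 and 390 against 452, 511 and 417, with the same Control library inside the KC-Tie2 range (log2 fold change 0.15 ± 0.11, 95% interval -0.088 to 0.39, limma adjusted p = 0.571). Without KC-Tie2 replicate 2 the difference at Tap2 was 0.074. The ratio of Tap1 to Tap2 was 0.469, 0.565 and 0.456 in Control kidneys and 0.543, 0.590 and 0.607 in KC-Tie2 kidneys (log2 difference 0.23, exact permutation p = 0.2, adjusted 0.7 over the 7 ratios). Both subunits are part of 1 heterodimer, and unequal change of their transcripts was not shown.

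Psmb8 and Psmb9 are inducible catalytic subunits that take the places of Psmb5 and Psmb6 in the immunoproteasome. Psmb8 (ENSMUSG00000024338, chromosome 17, 34416695 to 34420428, plus strand) was at 74.6, 129 and 89.3 in Control kidneys and at 134, 126 and 91.6 in KC-Tie2 kidneys. Psmb9 (ENSMUSG00000096727, chromosome 17, 34400961 to 34406738, minus strand) was at 67.7, 78.5 and 50.1 against 88.1, 86.5 and 50.8. In both genes Control replicate 2 was the highest Control library and KC-Tie2 replicate 3 the lowest KC-Tie2 library, and the groups overlapped. The log2 fold change was 0.28 ± 0.23 for Psmb8 (95% interval -0.21 to 0.77, limma adjusted p = 0.616) and 0.18 ± 0.26 for Psmb9 (-0.39 to 0.74, adjusted p = 0.813). These 2 genes had the fewest reads of the 10, with 66.0 to 156 estimated counts per library for Psmb8 and 37.0 to 104 for Psmb9. Their intervals include both 0 and a difference as large as that at H2-K1. Without Control replicate 1 the log2 fold change of Psmb8 was 0.11, and without Control replicate 3 that of Psmb9 was 0.00072. In the deposited annotation Psmb9 and Tap1 overlap by 212 bases on opposite strands, and the sources used here do not state whether counting used strand.

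Set against their constitutive partners, the inducible subunits did not separate the genotypes, apart from Psmb10, the remaining inducible catalytic subunit, which takes the place of Psmb7. Psmb8/Psmb5 was 0.0601, 0.108 and 0.0616 in Control kidneys and 0.110, 0.0924 and 0.0697 in KC-Tie2 kidneys (log2 difference 0.27, exact permutation p = 0.5). Psmb9/Psmb6 differed by 0.10 on the log2 scale (exact permutation p = 0.7) and Psmb8/Psmb9 by 0.10 (exact permutation p = 0.8). Psmb10/Psmb7 was 0.0865, 0.111 and 0.0700 in Control kidneys and 0.174, 0.132 and 0.129 in KC-Tie2 kidneys, with no overlap (log2 difference 0.71, exact permutation p = 0.1, the smallest possible). Over the 7 ratios its adjusted p was 0.7. Psmb10 itself was at 115, 138 and 101 in Control kidneys and at 205, 164 and 157 in KC-Tie2 kidneys (log2 fold change 0.57 ± 0.17, limma adjusted p = 0.121).

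Levels of the 10 genes spanned a wide range, compared here as Control means per kilobase of annotated exon (mean ± SD, n = 3, union of the exons in GENCODE M21). B2m was highest with 2596 ± 263, then H2-D1 with 1174 ± 69.8, H2-K1 with 900 ± 97.6 and H2-T23 with 625 ± 53.7 normalized counts per kilobase. A lower tier held H2-Q4 (142 ± 21.4), Tap2 (110 ± 12.2) and H2-Q7 (102 ± 13.1), and the lowest Tap1 (37.8 ± 8.94), Psmb8 (28.9 ± 8.30) and Psmb9 (17.9 ± 3.92). Neighbours within each of these lower tiers differed by less than the sum of their SDs. KC-Tie2 kidneys had the same order, from 3355 ± 616 for B2m to 20.5 ± 5.76 for Psmb9. Exon length is that of the annotation, so isoform use in kidney could shift a gene within the order.

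**Figure D3:**
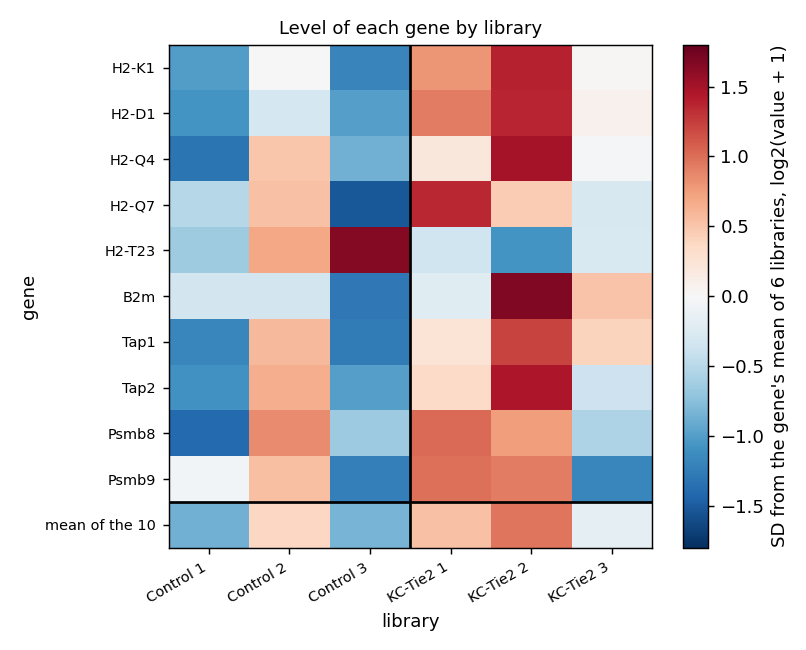
Each gene's level in each library (columns) in SDs from its own mean over the 6 libraries, on the log2(value + 1) scale; the bottom row is the mean of the 10 genes and the vertical line divides Control from KC-Tie2. Control 2 is above Control 1 and 3 in the bottom row (0.37 against -0.86 and -0.84), and KC-Tie2 3 is below the other KC-Tie2 libraries (-0.17 against 0.53 and 0.96).

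Within each genotype 1 library was often at the same end of the range. Control replicate 2 was the highest Control library at 9 of the 10, where it was highest at 34.6% of all genes, the exception being H2-T23. KC-Tie2 replicate 3 was the lowest KC-Tie2 library at 7 of the 10, against 34.8% of all genes. KC-Tie2 replicate 2 was the highest at 6, and the lowest Control library was replicate 1 at 5 genes and replicate 3 at the other 5. The mean profile of the 10 genes placed Control replicate 2 above KC-Tie2 replicate 3, and on the first principal component of all genes (34.3% of the variance) the same libraries lay nearest to the other genotype, at -10.4 and 6.93 where the other Control libraries had -25.2 and -27.6 and the other KC-Tie2 libraries 26.9 and 29.4. Pearson's r over the 6 libraries with the mean profile was 0.91 to 0.98 for H2-K1, H2-D1, H2-Q4, Tap1, Tap2 and Psmb8, 0.71 to 0.83 for H2-Q7, B2m and Psmb9, and -0.47 for H2-T23, values that include each gene's own share of the mean. Outside the 10, the genes most like this profile were Zfp219 (r = 0.998), Cwh43 (0.993), Dbndd2 (0.991), Pld4 (0.991) and Klc2 (0.989). These are the top of 12260 genes compared, of which 324 reached 0.9, and the 6 libraries share 2 genotypes, so the values are a description only.

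Markers of leukocytes and depth moved with this pattern in part. The 5 general leukocyte markers (all 5 in the table, Ptprc among them) summed to 743, 903 and 613 in Control kidneys and to 952, 1019 and 729 in KC-Tie2 kidneys, so Control replicate 2 and KC-Tie2 replicate 3 stood out in the same directions. Of 10 macrophage markers 9 were in the table. They summed to 1800, 2175 and 2342 in Control kidneys, highest in replicate 3, and to 2622, 2957 and 2421 in KC-Tie2 kidneys. The 3 complement genes C1qa, C1qb and C1qc were called higher, where 0.855% of all genes were. All 9 had a log2 fold change above 0, but that of Csf1r, the most abundant, was 0.057. Of 6 neutrophil markers 3 were in the table, S100a8, S100a9 and Csf3r, while Ly6g, Mpo and Cxcr2 were not. S100a8 was at 0, 0.826 and 0 in Control kidneys. The 3 markers summed to 8.40 to 17.3 in Control kidneys and to 58.1 to 145 in KC-Tie2 kidneys. All 3 were called higher, against the same 0.855% of all genes. For T cells 3 of 10 markers were in the table (40.6 to 80.9 against 32.7 to 51.1), for B cells 1 of 5 (2.71 to 25.6 against 7.50 to 18.9) and for NK cells 0 of 9, and the T cell receptor genes Cd3e and Trac were not among them. Dendritic cell markers (5 of 8) summed to 583 to 648 against 488 to 661 and the 7 endothelial markers to 10491 to 11619 against 10384 to 11391. The haemoglobin genes of residual blood summed to 1422 to 2155 against 919 to 4956. Ptprc itself was at 334, 357 and 299 against 354, 363 and 286. The estimated depth was 24200000, 29400000 and 18800000 counts in Control kidneys and 21300000, 29500000 and 27700000 in KC-Tie2 kidneys. The deepest Control library, replicate 2, was also the highest Control library at 9 of the 10 genes. KC-Tie2 replicate 3, the lowest KC-Tie2 library at 7 of the 10, was deeper than KC-Tie2 replicate 1. The part of leukocyte content or of depth in the class I values was not tested. As a check of the tissue, all 9 tubule and podocyte markers were present and summed to 392710 to 407529 in Control kidneys and 361626 to 407559 in KC-Tie2 kidneys. The Y-linked genes Ddx3y, Kdm5d, Uty and Eif2s3y were at 440 to 1049 in every library. Xist was at 98.4, 89.3 and 415 in Control kidneys and at 38.2, 25.6 and 241 in KC-Tie2 kidneys. It was thus highest in replicate 3 of both groups. Tek, the gene for Tie2, was at 989 to 1081 in Control kidneys and 933 to 976 in KC-Tie2 kidneys.

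The rest of the pathway was counted in lists of 76 other genes, of which 60 were tested. Of these 60, 0 were called higher (0.855% of all genes were) and 1 lower (0.838% of all genes), with a median log2 fold change of 0.019. At an unadjusted p under 0.05 in limma, 8 were higher and 6 lower, against 7.57% and 7.77% of all genes. The called gene was Fcgrt, the neonatal Fc receptor, a class I-like chain that pairs with B2m and recycles IgG and albumin. Fcgrt was at 3397, 3264 and 3242 in Control kidneys and at 2618, 2620 and 2750 in KC-Tie2 kidneys, and fell by 0.31 ± 0.06 on the log2 scale (limma adjusted p = 0.0354). Its groups were far apart relative to their spread. It was not called without Control replicate 1, without Control replicate 3, without KC-Tie2 replicate 1 or without KC-Tie2 replicate 2 (limma adjusted p of 0.170, 0.125, 0.124 and 0.179), with the log2 fold change between -0.32 and -0.29.

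**Figure D4:**
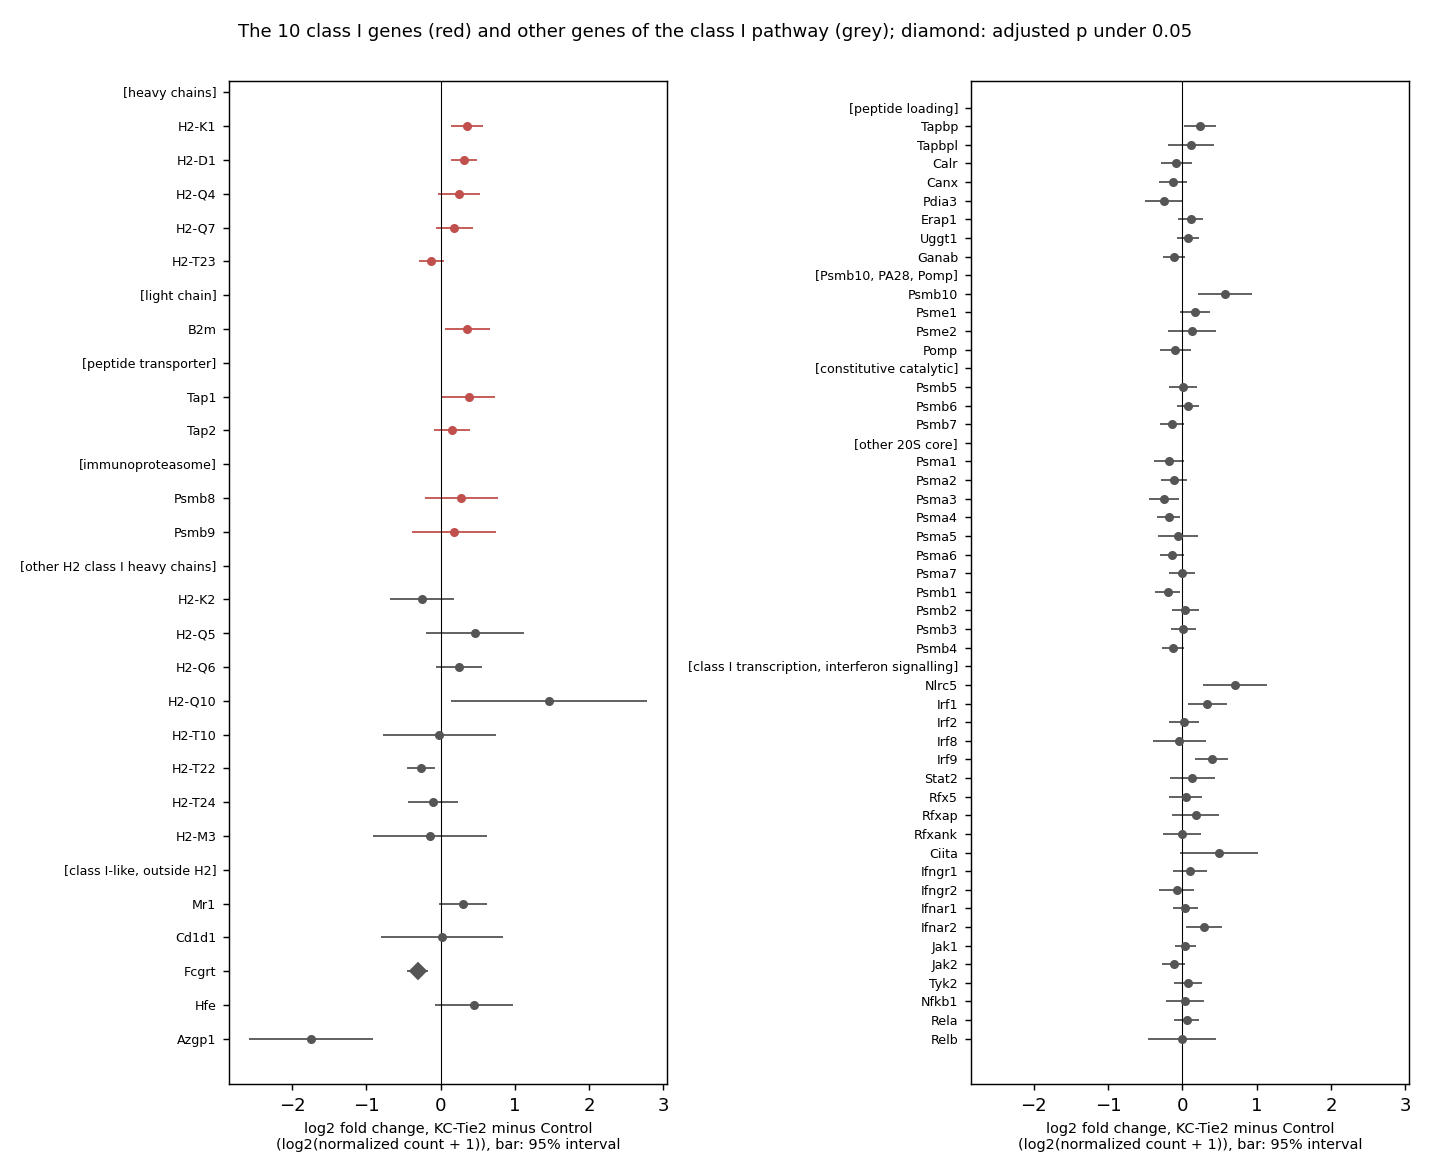
Log2 fold change (KC-Tie2 minus Control, log2(value + 1) scale, bars are 95% intervals from limma) of the 10 class I genes in red and 59 of the 60 other tested pathway genes in grey, grouped by role; diamonds mark an adjusted p under 0.05. Fcgrt is the only diamond, and 9 of the 10 red points lie above 0.

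Other chains built like class I went in both directions. Among 8 tested heavy chains of the H2 complex 3 were above 0. H2-T22, a nonclassical heavy chain of the T region, was at 1511, 1362 and 1667 in Control kidneys and at 1209, 1197 and 1365 in KC-Tie2 kidneys (log2 fold change -0.27 ± 0.09, limma adjusted p = 0.160). Weakly expressed H2-Q10 was at 15.9, 18.3 and 2.71 against 35.8, 21.2 and 30.02 (log2 fold change 1.46 ± 0.60, adjusted p = 0.271 in limma). Azgp1, a secreted class I-like protein that works without B2m, was at 1326, 962 and 1641 against 430, 263 and 489. Its groups did not overlap, with a log2 fold change of -1.75 ± 0.32 and a limma adjusted p of 0.0961, and the authors' deposited table gives a step-up FDR of 4.96e-05. Azgp1 was called in 2 alternatives, by eBayes without the robust option (limma adjusted p = 0.0140) and with the replicate block (8.36e-07). Of 17539 genes, 258 were called in the first of these fits and 581 in the second. The replicate number, which the block uses, is not shown to pair the libraries.

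Chaperones of peptide loading and the body of the proteasome had median log2 fold changes of -0.0031 and -0.12. Of 8 loading genes 4 were above 0. Tapbp, the tapasin that bridges TAP and the heavy chain, was at 2159, 2447 and 1886 in Control kidneys and at 2723, 2594 and 2305 in KC-Tie2 kidneys (log2 fold change 0.24 ± 0.10, limma adjusted p = 0.277), and Pdia3, the disulfide isomerase of the loading complex, had -0.25 ± 0.11 (adjusted p = 0.328). The constitutive subunits Psmb5, Psmb6 and Psmb7 had log2 fold changes of 0.0085, 0.075 and -0.14. Of 11 other core subunits 2 were above 0, against 50.3% of all genes. At an unadjusted p under 0.05 in limma 3 were lower, against 7.77% of all genes. The KC-Tie2 libraries lay entirely below the Control libraries at 5, against 10% of all genes. Among them Psma4 (log2 fold change -0.19 ± 0.07) and Psma3 (-0.25 ± 0.09) each had a limma adjusted p of 0.210. Psme1, an activator subunit of the proteasome, had 0.17 ± 0.09 (adjusted p = 0.416).

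Regulators of class I transcription and the interferon pathway were mostly above 0, with a median log2 fold change of 0.058 and no call. Nlrc5, the transactivator of class I genes, was at 126, 190 and 135 in Control kidneys and at 276, 275 and 187 in KC-Tie2 kidneys. Here too Control replicate 2 lay just above KC-Tie2 replicate 3, and the log2 fold change was 0.71 ± 0.20 (limma adjusted p = 0.106). Irf9, a subunit of the complex that type I interferon activates, was at 365, 423 and 371 against 527, 545 and 455, with no overlap (0.40 ± 0.10, limma adjusted p = 0.0837). Irf1, a transcription factor of the interferon response, had a log2 fold change of 0.34 ± 0.12 (limma adjusted p = 0.188). Of 21 regulators and receptors tested 17 were above 0, against 50.3% of all genes. At an unadjusted p under 0.05 in limma 5 were higher, against 7.57% of all genes, and 0 were called, against 1.69%. Without Control replicate 2 the limma adjusted p was 0.0323 for Nlrc5 and 0.0492 for Irf9, where 3.02% of all genes were called. Without KC-Tie2 replicate 3 the limma adjusted p was 0.0258 for Nlrc5, 0.0350 for Irf9 and 0.0476 for Irf1. In that fit 3.89% of all genes were called. No gene of the pathway lists was called without Control replicate 1, Control replicate 3, KC-Tie2 replicate 1 or KC-Tie2 replicate 2. In the authors' deposited table Nlrc5 had a step-up FDR of 0.0310 and Irf9 of 0.0631.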

How the data were processed

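RNA of 6 kidney samples was sequenced. Partek 12.5.0, STAR and DESeq2 and the build mm39 are named, without their roles, per the submitters' processing notes. The deposited values are a signal, normalized counts per gene: in each library 68.5% to 70.9% of the values under 60 were whole multiples of 1 step, to within 0.01, so depth was estimated as the sum divided by that step, and whole reads were not recovered. Filters, strand use and the handling of multi-mapping reads are not stated. From the authors' deposited table of the comparison, the p-value, step-up FDR and ratio were copied and the signed fold change (a score) was left aside.

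Genes with a mean of at least 10 were fitted on log2(value + 1) with limma 3.58.1 in R 4.3.3 (eBayes with trend and robust, residual df 4), two-sided, with Benjamini-Hochberg adjustment over all genes tested and calls under 0.05. The script was tested on simulated data with planted changes larger than those at the 10 genes. Its power for differences as small as theirs was not tested. Ratios were compared by exact permutation. Gene ends are 1 base before the listed stop. Exon lengths, transcripts (GENCODE M21) and upstream sequences are on GRCm38, matched by identifier or symbol.

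The genes, lists, motifs and tests were chosen with earlier results of these data known. Named were the 10 genes, Psmb5, Psmb6, Psmb7, Psmb10, Tapbp, Nlrc5 and Irf1, the called genes of each pathway list or else its 2 with the smallest p, and the 5 genes most like the mean profile, while 1 further gene of the rule is not reported here. Azgp1, Ptprc, Tek, Xist, the Y-linked genes and the neutrophil markers were named after their values were seen. Alternatives changed the pseudocount (0.5, 5), the filter (none, at least 100), the scaling (TMM, quantile), the block, the robust option, the weights or left out 1 library.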

Additional observations from a re-analysis of the deposited data

How the results depend on the processing

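Direction was kept for each of the 10 genes in all fits run, 15 alternatives for each gene and 14 for Psmb9, which a mean of at least 100 removes. H2-K1 ranged from 0.27 to 0.44 on the log2 scale and H2-D1 from 0.26 to 0.39, each called in 4 of 15, and none of the other 8 genes was called in any. The ranges at these 8 were 0.15 to 0.37 for H2-Q4, 0.090 to 0.28 for H2-Q7 and -0.19 to -0.065 for H2-T23. B2m ranged from 0.22 to 0.48, Tap1 from 0.28 to 0.57 and Tap2 from 0.074 to 0.24. Psmb8 ranged from 0.11 to 0.50 and Psmb9 from 0.00072 to 0.43. Each end of these 8 ranges came from a fit with 1 library left out. The number called of the 10 was 0 to 2 with 1 library left out, 2 with library weights and 2 with the replicate block (H2-K1 adjusted p = 0.0224 and H2-D1 0.0426 in limma, where 3.31% of all genes were called). Other pathway genes called numbered 0 to 4 with 1 library left out, 2 with eBayes without robust, 3 with library weights and 3 with the replicate block. Over all genes the counts were 48 to 682 with 1 library left out, 549 with library weights and 581 with the replicate block, beside 297. Same-numbered libraries deviated with correlations of 0.178, -0.0956 and 0.0173, so the number is not shown to pair them, and Control 3 correlated best with KC-Tie2 2 (0.26). The share called as higher was 50.5%, and 63.8% to 64.8% without Control replicate 1, Control replicate 3 or KC-Tie2 replicate 1. Other scalings shifted the median of all genes by under 0.01. With 1 library left out, the log2 difference of Psmb9/Psmb6 ranged from -0.11 to 0.38 (-0.11, -0.047 and -0.021 without Control replicate 3, KC-Tie2 replicate 1 and KC-Tie2 replicate 2), that of Psmb8/Psmb9 from -0.11 to 0.24 and that of H2-K1/H2-D1 from -0.0017 to 0.071. The cause was not tested.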
